A study of Mus musculus with 4 samples.

Results

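The 10 genes described here encode transcription factors of pluripotency: Pou5f1, Sox2, Nanog, Esrrb, Klf4, Prdm14, Tfcp2l1, Zfp42, Utf1 and Sall4. For each gene, peaks of FLAG-tagged MIXL1 were taken that overlapped its span in the RefSeq gene table or lay within 100 kb of it, measured to the nearer edge of the peak. These genes are 10 of 21523 protein-coding genes compared, and 30 of the 9403 peaks on the 20 chromosomes used were theirs. MIXL1, a homeodomain protein of the paired type, acts in the primitive streak, through which epiblast cells leave pluripotency for mesoderm and endoderm. The cells were mouse epiblast stem cells (EpiSC), which resemble the epiblast after implantation. They carried an inducible Mixl1 gene and were kept on irradiated fibroblasts in medium that held activin A at 20 ng/mL and bFGF at 10 ng/mL. Embryoid bodies were then formed in serum and collected at 2 days, and doxycycline at 1 µg/mL was present for the final 24 h. Of the 4 libraries, 2 were anti-FLAG precipitates of induced cells and 2 were input chromatin of the same induced cells. Binding was therefore read from an induced, tagged protein and not from the endogenous one, and cells without doxycycline were not analysed here.

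All 4 libraries enter the results through 1 deposited peak list that has positions and no scores. No value below has a replicate error, the depth is unknown, and no difference between genes was tested. Expression was not measured in these files, so they do not tell which of the 10 genes were active in the cells.

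Pluripotency rests on a circuit in which the factors bind their own enhancers and those of one another. OCT4, the product of Pou5f1, and SOX2 bind DNA side by side, and with the homeodomain protein NANOG they form its core. Esrrb, Klf4, Prdm14, Tfcp2l1 and Zfp42 mark the naive state of mouse embryonic stem cells and are known to be low in EpiSC, whereas Pou5f1 and Sox2 are known to be active in both. Utf1 encodes a chromatin-associated protein of pluripotent cells, and Sall4 encodes a zinc-finger protein that works with OCT4 and NANOG.

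The peaks divided the 10 genes evenly. Pou5f1, Sox2, Nanog, Esrrb and Sall4 had at least 1 peak within 100 kb, and Klf4, Prdm14, Tfcp2l1, Zfp42 and Utf1 had none. This is 5 of 10 genes, beside 52.8% of all protein-coding genes, so the share was close to the background. By role, all 3 core genes had a peak, against 1 of the 5 naive-state genes, namely Esrrb, and 1 of the other 2 genes, namely Sall4. These groups are small, and the longer lists given below did not repeat this order. There 10 of 14 genes of the naive list had a peak within 100 kb, against 9 of 15 further core and embryonic stem cell genes. The counts within 100 kb were 19 for Esrrb, 4 for Pou5f1, 3 each for Nanog and Sall4, and 1 for Sox2, while the median over all protein-coding genes was 1 peak with quartiles of 0 and 2. Esrrb alone held 63.3% of the 30 peaks, and the other 9 genes shared 11. A peak stood inside the span of 2 of the 10 genes, against 12.6% of protein-coding genes, and within 10 kb of 4 of 10, against 19.1%. Within 50 kb the count was 5 of 10 against 37.5%, and within 250 kb 9 of 10 against 75.5%. Within 500 kb the same number, 9 of 10, stood against 88.1%. With 10 genes, a single gene shifts each share by 10 percentage points, and none of these gaps was tested.

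**Figure D1:**
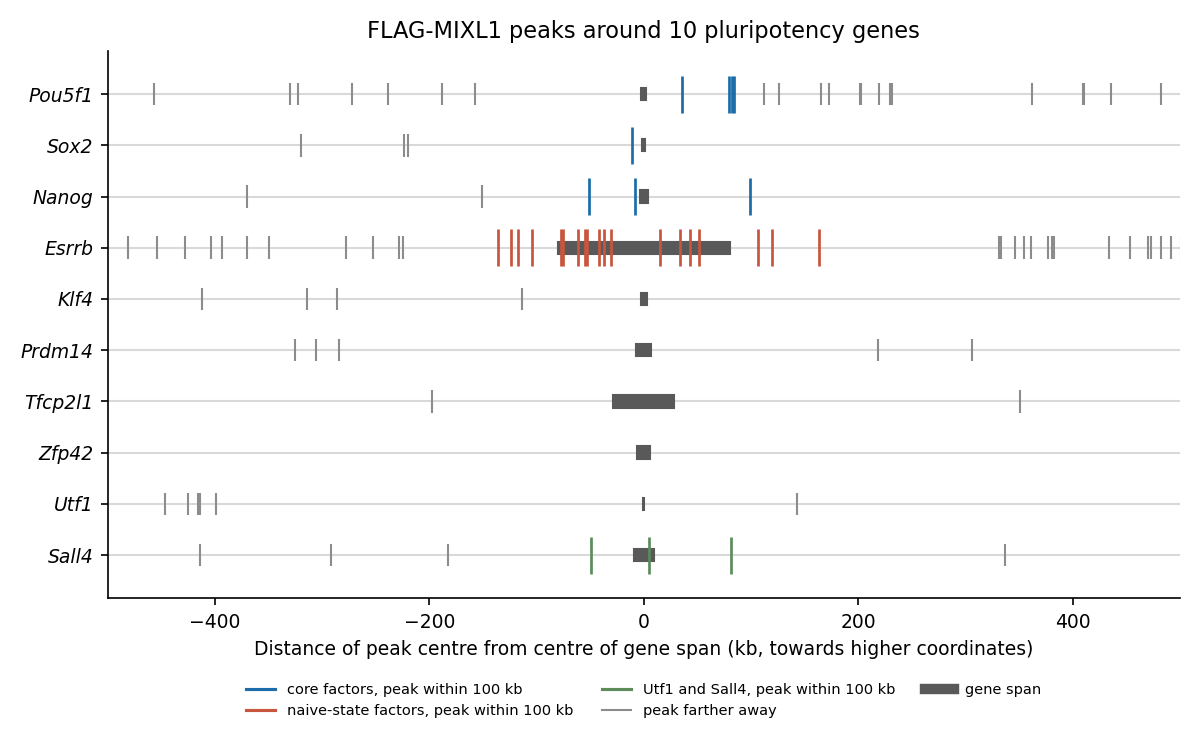
Positions of peak centres relative to the centre of each gene span, in kb, for the 10 genes (rows). Coloured ticks are peaks within 100 kb of the span, grey ticks are peaks farther away, and dark bars are gene spans. Peaks fill the Esrrb row, the 4 coloured Pou5f1 peaks lie on one side of the gene, and the Zfp42 row is empty to 500 kb on both sides.

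None of the 30 peaks overlapped a promoter listed for the 10 genes, beside 1.56% of protein-coding genes with a promoter under a peak. Here a promoter is the window of 250 bases before and 50 after a start site in RefSeq (GRCm38.p6, the assembly that mm10 denotes). The promoter table held 11 such windows for 8 of the genes and no entry for Prdm14 and Sall4. The windows of the core genes and of Esrrb are shown because these genes had peaks within 100 kb and start sites in the table, and a second Nanog window that overlaps the one printed is left out. Capitals mark the homeodomain core TAAT on either strand, so that ATTA is the same core read from the other strand. Pou5f1 and Esrrb each have an inner start too, and that of Esrrb divides its peaks.
Pou5f1 upstream start, plus strand, chr17:35505782-35506081: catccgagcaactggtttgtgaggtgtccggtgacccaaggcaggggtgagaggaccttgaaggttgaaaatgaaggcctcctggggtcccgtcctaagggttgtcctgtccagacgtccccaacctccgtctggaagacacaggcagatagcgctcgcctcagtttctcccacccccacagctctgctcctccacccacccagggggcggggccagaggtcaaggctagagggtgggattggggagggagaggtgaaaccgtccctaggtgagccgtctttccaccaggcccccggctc
Pou5f1 inner start, plus strand, chr17:35508557-35508856: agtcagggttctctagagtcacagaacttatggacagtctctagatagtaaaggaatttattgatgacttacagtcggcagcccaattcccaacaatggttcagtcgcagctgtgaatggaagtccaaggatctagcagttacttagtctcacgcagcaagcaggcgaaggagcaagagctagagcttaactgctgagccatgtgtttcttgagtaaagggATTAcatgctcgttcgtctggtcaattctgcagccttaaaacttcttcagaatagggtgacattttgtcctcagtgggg
Sox2, plus strand, chr3:34649745-34650044: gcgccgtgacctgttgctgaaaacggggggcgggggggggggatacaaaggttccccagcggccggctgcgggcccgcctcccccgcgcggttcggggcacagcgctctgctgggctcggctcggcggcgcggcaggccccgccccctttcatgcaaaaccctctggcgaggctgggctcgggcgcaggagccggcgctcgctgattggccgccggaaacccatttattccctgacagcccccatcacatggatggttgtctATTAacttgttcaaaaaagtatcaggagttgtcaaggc
Nanog, plus strand, chr6:122707239-122707538: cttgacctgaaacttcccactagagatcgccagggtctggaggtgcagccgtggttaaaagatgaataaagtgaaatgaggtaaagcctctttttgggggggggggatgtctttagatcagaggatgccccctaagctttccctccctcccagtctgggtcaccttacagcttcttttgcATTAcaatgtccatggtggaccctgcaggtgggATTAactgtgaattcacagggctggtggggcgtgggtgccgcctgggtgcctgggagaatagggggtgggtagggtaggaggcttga
Esrrb upstream start, plus strand, chr12:86360867-86361166: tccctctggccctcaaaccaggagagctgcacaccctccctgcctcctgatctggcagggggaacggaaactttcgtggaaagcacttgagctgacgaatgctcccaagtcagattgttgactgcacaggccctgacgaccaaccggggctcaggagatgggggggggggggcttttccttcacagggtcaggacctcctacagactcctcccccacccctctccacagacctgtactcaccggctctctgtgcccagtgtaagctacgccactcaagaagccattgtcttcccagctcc
Esrrb inner start, plus strand, chr12:86421394-86421693: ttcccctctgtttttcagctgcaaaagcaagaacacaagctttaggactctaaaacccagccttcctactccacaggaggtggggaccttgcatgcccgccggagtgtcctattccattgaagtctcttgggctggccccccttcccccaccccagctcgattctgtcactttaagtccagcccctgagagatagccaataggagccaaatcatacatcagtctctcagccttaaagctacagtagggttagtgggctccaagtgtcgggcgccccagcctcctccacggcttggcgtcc
The Nanog window had 2 matches, the first of them inside the composite OCT4 and SOX2 element for which this promoter is known. The Sox2 window and the inner Pou5f1 window had 1 each, and the upstream Pou5f1 window and both Esrrb windows had none. Counting all windows, 5 of the 11 held TAAT, from 4 of the 8 genes, beside 58.0% of the 32851 promoter windows of the table. Paired-type homeodomain proteins are known to bind palindromes of this core as pairs. These palindromes consist of TAAT, a spacer of any 2 or any 3 bases, and ATTA, and they read alike on both strands. Neither occurred in any of the 11 windows. Among the 453 windows that a MIXL1 peak overlapped, TAAT occurred in 72.6%, against 58.0% of all windows. The palindrome with a spacer of 2 occurred in 3 of the 453 overlapped windows (0.662%), against 0.390% of all windows. The one with a spacer of 3 occurred in 9 of the 453 (1.99%), against 0.487%. Both shares rest on few windows, and no difference was tested. Each palindrome holds TAAT, and windows of one gene can overlap, so these shares are not independent. Windows were read whole, so a match in an overlapped window need not lie under the peak. Outside the windows, the bases under the peaks were not read, since no genome sequence was used here.

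Among the core genes, Nanog had the nearest peak. Nanog (chromosome 6, 122707489 to 122714633) encodes the homeodomain factor that stabilises the pluripotent state. Its nearest peak, 492 bp wide at 122702407 to 122702898, ended 4.59 kb upstream of the span and of its first start site, and 15.97% of protein-coding genes had a peak as near or nearer. Nanog had 3 peaks within 100 kb, on a chromosome where 55.9% of protein-coding genes had any. A second upstream peak of 580 bp, at 122659310 to 122659889, lay 47.6 kb from Nanog with no other protein-coding gene in between. That peak stood in the stretch of 77.2 kb between Nanog and Dppa3, an oocyte and germ-cell gene also active in naive cells, and its centre was nearer to Dppa3, at 29.3 kb. The interval between these genes is known to hold Nanog enhancers active in embryonic stem cells, and whether the peaks coincide with them was not examined. The third peak, of 600 bp, lay 95.6 kb downstream beyond the glucose transporter gene Slc2a3, and was nearest to that gene. It was the farthest peak counted for any of the 10 genes, and the gene that just missed the limit was Klf4, with its nearest peak at 111 kb.

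Sox2 had a single peak in its neighbourhood. Sox2 (chromosome 3, 34649995 to 34652461) encodes the HMG-box partner of OCT4 and lies in a stretch with no other protein-coding gene within 500 kb. The peak, 361 bp wide at 34639827 to 34640187, lay 9.81 kb upstream, inside the span of the noncoding gene Sox2ot, and 18.98% of protein-coding genes had a peak as near or nearer. On chromosome 3, 51.9% of protein-coding genes had a peak within 100 kb. Within 500 kb Sox2 had 4 peaks, all of them on the upstream side, the others at 219, 222 and 318 kb. On the downstream side, where the best-known Sox2 enhancer of embryonic stem cells lies, the nearest peak was 672 kb away.

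Pou5f1 had 4 peaks within 100 kb, yet for none of them was it the nearest gene. Pou5f1 (chromosome 17, 35506032 to 35510777) lies in the gene-dense region of the major histocompatibility complex, with 8 other protein-coding genes within 100 kb. The nearest peak, 1156 bp wide at 35543139 to 35544294, lay 32.4 kb downstream, beyond Tcf19, Cchcr1 and Psors1c2. It fell on Cdsn, which encodes the skin adhesion protein corneodesmosin, and reached 12 bases into a promoter window of that gene. This was the only promoter window that any of the 30 peaks overlapped. The other 3 peaks, of 308, 354 and 606 bp, stood together within 4.38 kb at 77.3, 80.2 and 81.1 kb downstream, and 5 protein-coding genes lay between them and Pou5f1. Upstream, where the known distal and proximal enhancers of Pou5f1 lie close to the gene, no peak was listed within 100 kb and the nearest was 155 kb away. Genes with many peaks nearby were common on this chromosome, where 67.4% of protein-coding genes had a peak within 100 kb and 182 of 1048 had 4 or more. The 1-Mb window that holds Pou5f1 had 25 peaks.

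**Figure D2:**
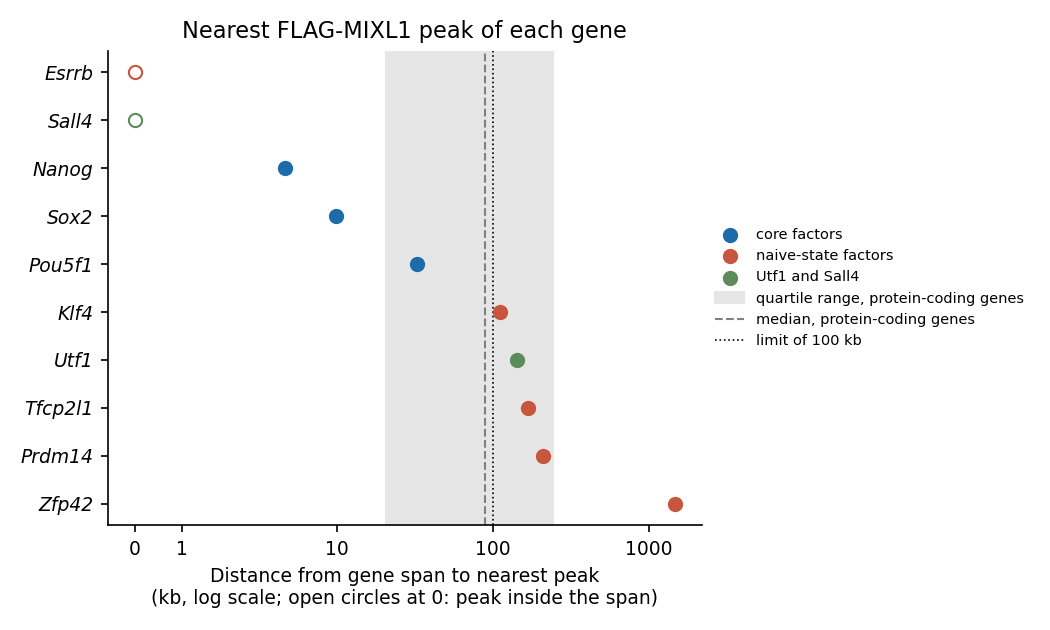
Distance in kb (log axis) from each gene span to its nearest peak, with open circles for genes that hold a peak inside the span. The grey band runs from 20.7 to 245 kb, the quartiles of all protein-coding genes, and the dashed line is their median of 89.3 kb. The core genes lie below that median at 4.59 to 32.4 kb, and the genes without a peak within 100 kb lie at 111 to 1477 kb.

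Esrrb had the most peaks of the 10 genes. Esrrb (chromosome 12, 86361117 to 86521628) encodes an orphan nuclear receptor that holds cells in the naive state and can take the place of NANOG there. It had 12 peaks inside its span of 161 kb, 4 upstream and 3 downstream within 100 kb. Of the 21523 protein-coding genes, 46 had 19 or more peaks within 100 kb (0.214%), Esrrb included. Chromosome 12 was dense in peaks as a whole, and 91.2% of its protein-coding genes had one within 100 kb, with a median of 3. Even there 4 of 678 genes had 19 or more. Among the 70 protein-coding genes of chromosome 12 with a span of 100 to 250 kb, 77.1% held at least 1 peak inside, and Esrrb was the single gene with 12 or more (1.43%).

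The peaks were uneven along the gene. RefSeq gives Esrrb an upstream start site at 86361117 and an inner one at 86421644, 60.5 kb apart. Between them lay 8 peaks, or 132 per Mb, from 2.87 to 50.2 kb beyond the upstream start. The remaining 99.98 kb of the span held 4, or 40.01 per Mb, the first of them 34.4 kb past the inner start. The flanks within 500 kb on either side held 17 peaks upstream and 25 downstream, or 42.0 per Mb. Chromosome 12 outside the Esrrb span, these flanks included, had 13.1 per Mb. The whole span, at 74.8 per Mb, was thus denser than its flanks, and the part beyond the inner start was not. The fixed 1-Mb window that holds the gene, not centred on it, had 49 peaks. A stretch of 167 kb without any followed the last peak counted downstream.

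Peak width differed along the gene as well. The 8 peaks there had a median width of 861 bp and ranged from 385 to 1139 bp, against a median of 504.5 bp for the 4 peaks past the inner start and 426 bp for the 7 peaks outside the span. Peaks as wide were also listed farther off, since the 13 peaks from 100 to 500 kb upstream had a median of 779 bp, with 4 of 1 kb or more and a maximum of 1736 bp. The 22 peaks at the same distances downstream had a median of 399 bp and none of 1 kb. Over all 19 Esrrb peaks the median was 460 bp and 15.8% were 1 kb or wider, against 563 bp and 18.0% for all peaks of chromosome 12. The 3 Esrrb peaks of 1 kb or more, of 1117, 1139 and 1100 bp at 86363989 to 86365105, 86398704 to 86399842 and 86410190 to 86411289, all lay between the starts. The peak closest to the upstream start was followed after 0.341 kb by one of 926 bp, the smallest gap in the gene. For 15 of the 19 peaks Esrrb was the nearest protein-coding gene, among them the 12 inside its span, where the distance is 0. The other 4 were nearest to its neighbours Gpatch2l and Vash1. Width stands in here for the missing score, and how it relates to binding strength was not tested. The list has no signal, so the number of copies of chromosome 12 in these cells is not known from it, and its part in these counts was not tested.

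**Figure D3:**
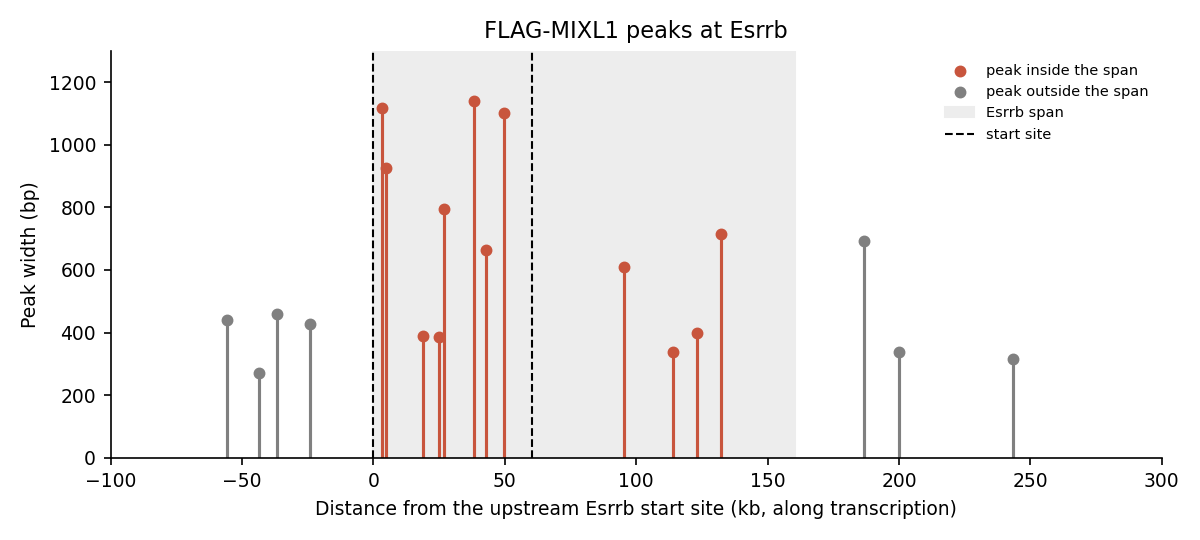
Peaks at Esrrb by distance from its upstream start site in kb (x) and by width in bp (y), with the gene span shaded and both start sites dashed. The 8 peaks between the starts include the 3 of 1 kb or more, and the 4 peaks past the inner start are 337 to 714 bp wide.

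Sall4 and Esrrb were the genes with a peak inside the span. Sall4 (chromosome 2, 168748332 to 168767201) held 1 peak of 407 bp at 168762479 to 168762885, and 11.4% of the protein-coding genes of chromosome 2 had a peak overlapping the span. Within 100 kb it had 3 peaks, and 44.9% of the genes of that chromosome had any. The gene table does not give exons, so exon and intron could not be told apart. Its other 2 peaks were 284 bp wide inside the phospholipid transporter gene Atp9a, 40.1 kb away, and 404 bp wide on the other side, 71.5 kb away towards Zfp64. All 3 were narrower than the median of 485 bp over the 9403 peaks, as was the Sox2 peak. Over the 30 peaks the median width was 449.5 bp, and 4 of them (13.3%) were 1 kb or wider, against 12.5% of all 9403.

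The naive-state genes other than Esrrb had their nearest peaks beyond 100 kb. Klf4 (chromosome 4, 55527137 to 55532475), a zinc-finger gene that LIF signalling sustains, had its nearest peak of 558 bp 111 kb downstream, and that peak lay closer to Rad23b. Tfcp2l1 (chromosome 1, 118627923 to 118685168), a CP2-family gene that maintains naive cells, had one of 338 bp 169 kb upstream, inside Clasp1. Prdm14 (chromosome 1, 13113428 to 13127163), which encodes a PR-domain protein of naive and germ cells, had one of 1193 bp 211 kb away, inside the nuclear receptor coactivator gene Ncoa2. On their chromosomes 59.6% (chromosome 4) and 55.2% (chromosome 1) of protein-coding genes had a peak within 100 kb. Peaks as near as these were common, since 55.5, 66.1 and 71.6% of protein-coding genes had one as near as that of Klf4, Tfcp2l1 and Prdm14, in that order.

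Zfp42 was farther from a peak than the other 9 genes. Zfp42 (chromosome 8, 43295067 to 43307009), also called Rex1, encodes the zinc-finger protein long used as a reporter of naive cells. Its nearest peak lay 1477 kb upstream, and on the downstream side the nearest was 2195 kb away. As near a peak, or a nearer one, was found for 97.5% of all protein-coding genes and for 99.4% of those on chromosome 8, where 49.2% had a peak within 100 kb. The stretch without peaks measured 3684 kb and held 12 whole protein-coding genes. Of the 9383 gaps between neighbouring peaks, 60 were at least as long, and the median gap was 78.0 kb. Whether filters applied to the list removed peaks from this stretch was not tested.

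Utf1 (chromosome 7, 139943856 to 139945112), a small gene known as a direct target of OCT4 and SOX2, had 6 other protein-coding genes within 100 kb and no peak there. The nearest, of 351 bp, lay 142 kb downstream beyond 6 protein-coding genes and was nearest to Caly. On chromosome 7, 48.9% of protein-coding genes had a peak within 100 kb, and over all chromosomes 61.6% had one as near as that of Utf1.

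For 18 of the 30 peaks within 100 kb, the nearest protein-coding gene was the pluripotency gene for which the peak was counted. Without Esrrb the pluripotency gene was the nearest for 3 of 11 peaks, with 1 each at Nanog, Sox2 and Sall4, that of Sall4 inside its span. No such share was counted over other genes, so neither count can be called high or low.

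Other genes of the pluripotency network were counted in the same way, and 33 of 47 had a peak within 100 kb (70.2%, beside the 52.8% background). Formative and primed genes, which mark cells on the way out of the naive state, had one in 10 of 12, with a median nearest distance of 38.8 kb. Dnmt3a, a DNA methyltransferase gene, had 3 peaks in its span and 6 within 100 kb. It lies on chromosome 12, where 91.2% of protein-coding genes had a peak within 100 kb, with a median of 3. Sox4 had its nearest at 6.36 kb, while Zic2 and Dnmt3b had none within 100 kb. The list of other naive genes, not all of them particular to that state, had one in 10 of 14, with a median nearest distance of 53.6 kb. Peaks lay inside Tet1, an enzyme of DNA demethylation, with 1, and inside Jarid2, a partner of Polycomb complexes, with 2. They lay 2.66 kb from the homeobox gene Gbx2, which had 6 within 100 kb, and 3.12 kb from the nuclear receptor gene Nr5a2. Klf2, Prdm1, Myc and Nr0b1 had none within 100 kb.

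Genes of the LIF and STAT3 pathway, which sustains naive cells, had a peak within 100 kb in 4 of 6, beside the 52.8% of all protein-coding genes. The kinase gene Jak1 held 2 peaks in its span and the receptor gene Lifr had one at 1.295 kb, while Lif and Il6st had none within 100 kb. The remaining list, of further core and embryonic stem cell genes, gave 9 of 15 (60.0%), near the background of 52.8%. It included 1 peak inside Lin28a, which encodes an RNA-binding protein of let-7 processing, 1 inside Zfp57, a guardian of imprinting, and peaks 1.17 kb from the Nodal co-receptor gene Tdgf1 and 5.73 kb from Sall1. Dppa2, Dppa4, Dppa5a, Trim28, Zscan4c and Tcf3 had none within 100 kb. In the gene table Tcf3 is the E2A gene and not Tcf7l1, which work on pluripotency has also called Tcf3.

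Zfp57 was the single gene of these 47 with a promoter window under a peak, beside 1.56% of the protein-coding genes in the promoter table. Its window is shown for comparison with those of the core genes, with TAAT on either strand in capitals, and the peak, 256 bp wide at 37003317 to 37003572 on chromosome 17, covered 157 of its 300 bases.
Zfp57, plus strand, chr17:37003416-37003715: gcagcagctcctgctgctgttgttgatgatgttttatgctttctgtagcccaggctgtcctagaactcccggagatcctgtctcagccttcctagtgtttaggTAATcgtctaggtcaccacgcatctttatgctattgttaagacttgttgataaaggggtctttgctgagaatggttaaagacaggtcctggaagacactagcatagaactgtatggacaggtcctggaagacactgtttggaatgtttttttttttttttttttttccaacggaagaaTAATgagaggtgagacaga
This window had 2 matches to TAAT, the first in the part under the peak and the second outside it.

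**Figure D4:**
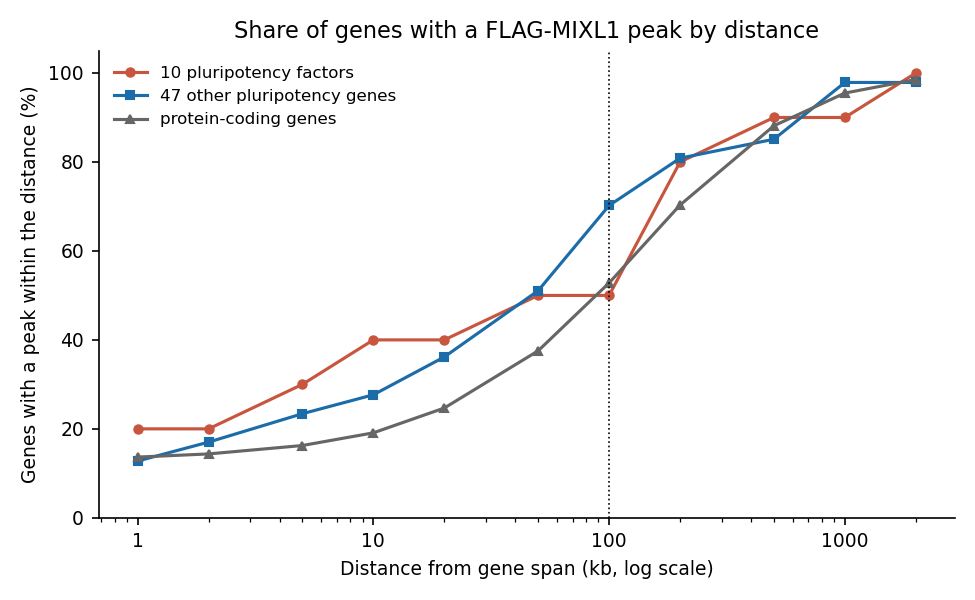
Share of genes in percent with a peak within a given distance of the gene span in kb (log axis), for the 10 factors, 47 other pluripotency genes and all 21523 protein-coding genes. At 10 kb the shares are 4 of 10 factors, 27.7% of the other genes and 19.1% of protein-coding genes, and at 100 kb, the dotted line, 5 of 10, 70.2% and 52.8%.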

How the data were processed

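Chromatin immunoprecipitation was sequenced in 2 FLAG and 2 input libraries, and the authors deposited 1 list of 9598 peak positions without a score. The submitters' processing notes name mm10, Bowtie2, MACS2, SAMtools and CASAVA 1.8.2. How peaks were thresholded, whether input was used and whether replicates were pooled is not given in the sources used here. From its name the deposited list appears to have been filtered in ways that no label describes, so a place without a peak may have been filtered, which was not tested. Left out were the 195 peaks on other contigs and the 340 genes listed in the first 3 Mb of a chromosome. Distances ran from the gene span to the nearer edge of a peak, in RefSeq GRCm38.p6, and positions are printed 1-based. The members and the gene lists were chosen with earlier results of these data known. The text names the 10 genes and, from each further list, up to 5 genes with a peak inside or within 10 kb; 1 gene that this rule takes is not reported here, and genes named beyond these were chosen after their values were seen. On simulated peaks, distances were checked against bedtools 2.31.1, and counts against a direct search around randomly drawn genes. Python 3.11.15, numpy 2.4.6, pandas 2.3.3 and matplotlib 3.10.9 were used.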

Additional observations from a re-analysis of the deposited data

How the results depend on the processing

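The count of 5 of 10 genes with a peak within 100 kb was 4 within 10 kb of the span, 5 within 50 kb, and 9 within 250 kb and within 500 kb. It was 3 with the wider 50% of the peaks, which drops Sox2 and Sall4, and 3 after leaving out 1-Mb windows with 20 peaks or more, which drops Pou5f1 and Esrrb. The 30 peaks became 15, 54 and 112 within 10, 250 and 500 kb, 14 with the wider peaks, 7 without dense windows and 11 without chromosomes 12 and X. The background of 52.8% became 19.1% within 10 kb, 88.1% within 500 kb and 32.2% with the wider peaks, and the 33 of 47 other genes became 13 within 10 kb and 20 with the wider peaks. The distance limits and the smaller sets of peaks move such counts by construction, and the other settings kept each count within 1.5 times. Leaving out the dense windows left the background at 50.8% and the other genes at 33 of 47, while the 10 genes fell to 3. The 1-Mb windows that hold Pou5f1 and Esrrb had 25 and 49 peaks, those counted for these genes included. Both genes were therefore dropped by construction. Of 28 recomputed nearest distances, 5 moved by over 1.5 times: with the wider peaks those of Sox2, Tfcp2l1, Utf1 and Sall4 were 318, 322, 398 and 327 kb, and Esrrb was 2.87 kb from its start site. No paired analysis was possible because all libraries share 1 peak list, and for the same reason no replicate could be left out.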

Other observations

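Between 100 and 500 kb, 4 of the 5 genes without a nearer peak had 17 peaks. For none of these peaks was the pluripotency gene the nearest protein-coding gene. The peaks were taken for lying far from it, and Klf4, Tfcp2l1, Prdm14 and Utf1 had 2, 4, 5 and 28 other protein-coding genes within 500 kb. Another gene nearer to the peak was thus likely from the outset, and no share over like genes was counted. Of the 17 peaks, 11 lay inside other protein-coding genes. The share of all 9403 peaks inside such genes was not counted, so 11 cannot be called high or low. A group of 5 stood inside Inpp5a, an inositol phosphatase gene, 398 to 445 kb upstream of Utf1. Another 3 lay inside Sulf1, which encodes a heparan sulfate sulfatase, 277 to 318 kb from Prdm14. At 366.5 kb upstream of Nanog, a peak of 400 bp lay 0.332 kb from Phc1, a Polycomb gene.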
